A study of Oryctolagus cuniculus with 4 samples.

Results

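The putative plasma cell spots were 77 of the 1726 spots under tissue in a Visium section of rabbit supraspinatus muscle collected 16 weeks after tenotomy. They made up 4.46% of that section, and the series held 6970 spots in 4 sections. The spots were chosen by their counts of a single feature without a gene symbol, ENSOCUG00000027394, of which each held 23 or more unique molecular identifiers (UMIs, each standing for a captured transcript molecule). They were set against the 868 spots of the same section with 0 UMIs of this feature and 500 or more UMIs in all. In neither group were 668 spots with 1 to 21 UMIs of the feature and 113 spots with none of it and fewer than 500 UMIs. Below, the groups are called marked and comparison spots.

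Plasma cells are the antibody-secreting end stage of the B cell lineage, and they carry an enlarged endoplasmic reticulum in which antibody chains are folded, paired and exported. JCHAIN encodes the joining chain that links antibody units into polymeric IgM and IgA, and MZB1 encodes an endoplasmic reticulum co-chaperone of antibody assembly. Healthy skeletal muscle holds few of these cells, and those that enter injured tissue usually lie in the connective tissue between fibers and around vessels. A Visium spot is a printed disc on the slide that captures RNA from whatever lies above it, so it is a small region of several cells and not a cell. More plasma cells and more RNA per plasma cell cannot be told apart in such a spot.

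All animals were skeletally mature female New Zealand White rabbits. The supraspinatus tendon had been cut 2 or 16 weeks before collection in 2 of the sections and was intact in the other 2, of which 1 was fresh and 1 was stored. The 16-week, the 2-week and the stored healthy tissue had been kept frozen for 6 years. The labels of the 16-week and the stored healthy section carry the same number with the letters L and R, and each condition was a single section. Without replicates no test was run, and the intervals given are 95% intervals for counting error only.

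The values of the feature that chose the spots are a description only. It had a median of 60 UMIs per marked spot (quartiles 35 and 149, highest 794). It was left out of the summed group totals and of the list shares per spot that follow. Depth per spot, numbers of detected genes and section totals include it. Just inside the threshold 4 spots held 23 UMIs, and just outside it 1 spot held 21 and 1 held 19. The marked spots held 8696 of the section's 10589 UMIs of it, or 82.1%. No gene name was paired with this identifier in the files or in the RefSeq table used here.

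The marked spots summed to 189590 UMIs of other features and the comparison spots to 2556825. Depth per spot overlapped widely, with a median of 1974 UMIs in marked spots (1014 to 10861) and 2335.5 in comparison spots (504 to 12175). The median number of detected genes was 694 and 652. Mitochondrially encoded transcripts took 18.2% of the summed UMIs of the marked spots and 36.2% of those of the comparison spots. Over the 2544 genes with 50 or more UMIs the median log2 ratio of marked over comparison spots was 0.58, and ratios below are read against it. It was 0.24 when mitochondrial genes were left out of the totals and of the genes. Of these genes, 743 (29.2%) were 2-fold or more higher in marked spots and 122 (4.8%) were 2-fold or more lower. The interval lay above 0 for 656 of the higher and below 0 for 84 of the lower genes. Without mitochondrial genes the numbers were 380 higher and 186 lower.

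The label was checked first with the markers given for it. JCHAIN was counted 95 times in the marked spots and 11 times in the comparison spots, although the latter held far more RNA in all. The log2 ratio was 6.81 (5.96 to 7.91). JCHAIN was present in 41 of 77 marked spots, or 53.2%, and in 11 of 868 comparison spots, or 1.27%. No comparison spot held more than 1 JCHAIN UMI, while 20 marked spots held 1, 6 held 2, 8 held 3, 3 held 4 and the other 4 held 6 to 8. All 15 spots of the section with 3 or more JCHAIN UMIs were marked spots. The 77 marked spots together held 95 of the section's 129 JCHAIN UMIs.

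MZB1 followed the same division at lower counts. It had 24 UMIs in 17 marked spots and 3 UMIs in 3 comparison spots, a log2 ratio of 6.56 (5.03 to 9.13), and 24 of the section's 28 MZB1 UMIs were in marked spots. Either marker was detected in 45 of the 77 marked spots and both in 13. The rest had neither, at a depth where JCHAIN gave at most 8 UMIs in any spot. After each spot was thinned to 500 UMIs, JCHAIN was left in 15 of 77 marked spots (19.5%) and 2 of 868 comparison spots (0.23%). MZB1 was then left in 3 of 77 (3.90%) and 2 of 868, and its log2 ratio was 3.98.

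The remaining plasma cell genes were unevenly captured. TXNDC5, a disulfide isomerase abundant in secretory cells, had 17 UMIs in marked and 27 in comparison spots, a log2 ratio of 3.10 (2.12 to 4.01). SEC11C, a subunit of the signal peptidase, had 36 and 344 UMIs, a log2 ratio of 0.51 (-0.04 to 0.99) that lay below that of the median gene. TNFRSF17, the receptor that transmits plasma cell survival signals, was seen 2 times in all, both in marked spots. PRDM1, the transcription factor that fixes plasma cell fate, and SDC1, a plasma cell surface proteoglycan, had 0 UMIs in both groups, and so did POU2AF1, SLAMF7 and FCRL5. Of 20 genes on the plasma cell list 11 had a feature, and 4 had 20 or more UMIs. Of these 4, 3 were 2-fold or more higher, against 32.4% of all 3872 genes with 20 or more UMIs. JCHAIN and MZB1 were given with the rule for the spots. Both reached 20 UMIs only through the marked spots, with 11 and 3 UMIs in comparison spots. The count is therefore a description and no independent support for the name. The name was given with the rule, as were JCHAIN and MZB1. Of the other measured plasma cell genes TXNDC5 was higher but was found in only 12 marked spots, and SEC11C was not above the median gene. The spots are therefore called putative.

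A second feature without a symbol, ENSOCUG00000025374, was counted 1048 times in 75 marked spots and 31 times in 28 comparison spots. Its log2 ratio was 8.81 (8.32 to 9.40), above that of JCHAIN.

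**Figure D1:**
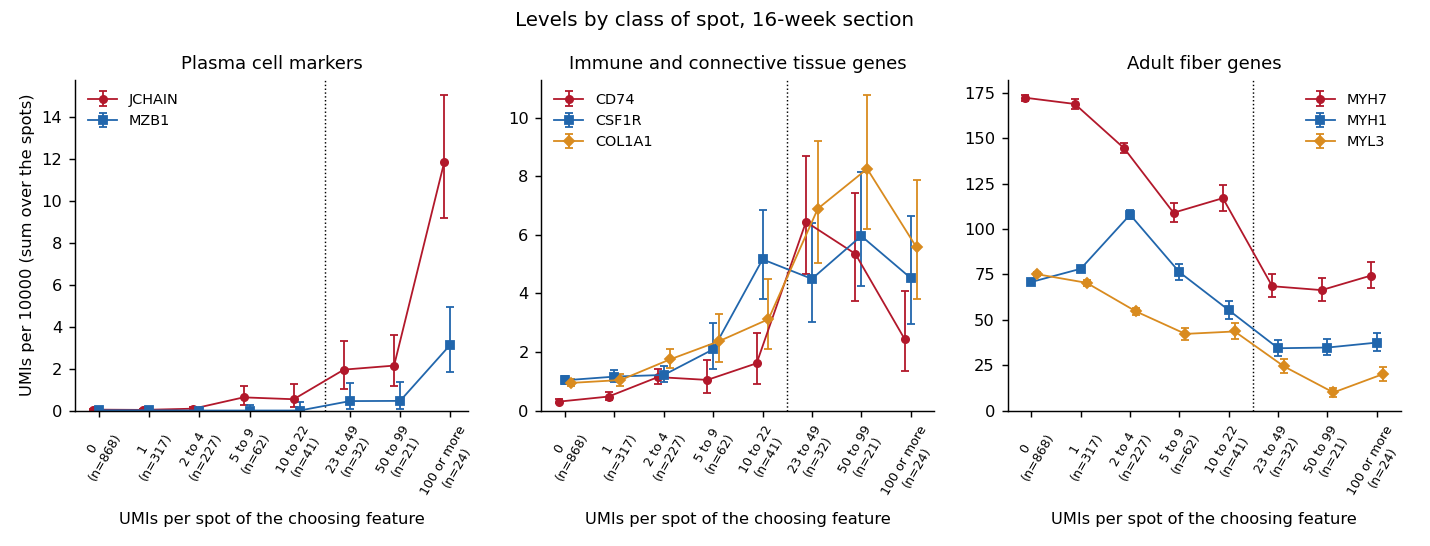
UMIs per 10000 summed over the spots of each class (y axis) against the UMIs per spot of the feature that chose the spots (x axis, number of spots in brackets), with 95% counting intervals. The class with 0 UMIs is the comparison spots, classes right of the dotted line are marked spots. The classes are set by the choosing feature, so the plot is a description, with JCHAIN at 11.8 and COL1A1 at 5.57 UMIs per 10000 in the last class.

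The plot of levels by class of spot describes the spots between the groups as well, in classes set by the choosing feature itself. JCHAIN was at 0.04 UMIs per 10000 in comparison spots, 0.54 in spots with 10 or more UMIs of the feature below the threshold, 1.95 in marked spots with 23 to 49 and 11.8 in those with 100 or more. MZB1 had no UMI in spots with 2 to 21 UMIs of the feature and reached 3.13 per 10000 in the last class. COL1A1, the main collagen chain of fibrous tissue, was at 6.89, 8.25 and 5.57 UMIs per 10000 in the 3 marked classes, and CSF1R, the macrophage growth factor receptor, at 4.50, 5.96 and 4.53. CD74, the invariant chain of MHC class II, was lower in the last class, at 6.44, 5.35 and 2.44. The slow myosin MYH7 was at 68.5, 66.3 and 74.3 in the same classes and at 172.3 in comparison spots. No comparison between genes rests on these classes.

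Other lymphocytes were almost undetected. The B cell genes MS4A1, PAX5, BLK, CR2 and FCRLA had 0 UMIs in the whole section. The 8 B cell genes with a feature came to 5 UMIs and the 8 T and NK cell genes to 11 UMIs in 1726 spots, with 0 of the latter in marked spots. At this depth lymphocytes other than plasma cells were not detectable, which does not show that they were absent. Signals known from lymphoid tissue were seen at low counts. LTB, a lymphotoxin chain that organizes lymphoid tissue, had 16 and 17 UMIs (log2 ratio 3.67, 2.59 to 4.74), and TNFSF13, the plasma cell survival factor APRIL, had 10 and 14 UMIs (3.29, 1.94 to 4.54). CCL21, a lymphocyte attractant made by lymphatic vessels, had 111 and 627 UMIs, a log2 ratio of 1.26 (0.95 to 1.55). CCL2, a monocyte attractant, had 3 and 47 UMIs and a log2 ratio of -0.01 (-2.54 to 1.42), below the median gene. Of the 6 measured genes of this list 3 were 2-fold or more higher, against 32.4% of all genes. LTB and TNFSF13 are among these 3 and reached the minimum UMIs for list members only through the marked spots. The count is therefore a description only. The list median of 1.06 was -0.57 with comparison spots weighted by connective tissue share, where 2 were higher and 2 lower. It was -0.27 when they were weighted by fiber share.

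Genes of the secretory pathway, which plasma cells use heavily but all secreting cells share, had a median log2 ratio of 1.0, against 0.63 for all genes. Of 21 measured genes 10 were 2-fold or more higher and 1 lower, against 32.4% and 6.35% of all genes. The endoplasmic reticulum chaperone HSP90B1 had 188 and 1037 UMIs (1.29), the disulfide isomerase PDIA3 had 120 and 562 (1.53), and SEC61A1, the translocation channel, had 47 and 251 (1.35). SEC61G, a small subunit of the same channel, was lower than the median gene with 63 and 1297 UMIs (-0.60). When comparison spots were weighted to the connective tissue shares of the marked spots, the median of this list fell to 0.09.

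The marked spots themselves were rich in connective tissue transcripts. The 24 connective tissue genes with a feature took a median of 3.58% of the UMIs of a marked spot (0.25% to 7.83%) and 0.78% of a comparison spot (0 to 9.83%). Among the marked spots 72 lay above the comparison median and 51 above its 90th percentile, so the groups overlapped but their centers were far apart. Of 19 measured genes 14 were 2-fold or more higher and 0 lower, against 32.4% and 6.35% of all genes. The median log2 ratio was 2.01. COL3A1, the collagen of loose and young fibrous tissue, had 1666 and 4325 UMIs (2.38, 2.29 to 2.46), and COL1A1 had 132 and 241 (2.89, 2.57 to 3.20). SFRP2, a Wnt modulator of fibroblasts, had 221 and 273 UMIs (3.45, 3.19 to 3.71) and was found in 62 of 77 marked and 170 of 868 comparison spots. The proteoglycans LUM (2.27), KERA (2.62) and DCN (1.04) were higher as well, whereas COL12A1 (0.01) and ASPN (-0.07), with 2 UMIs each in marked spots, were not.

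Macrophage genes were higher in marked spots. Of 9 measured genes 8 were 2-fold or more higher, against 32.4% of all genes, with a median log2 ratio of 2.28. Of the 77 marked spots 70 held at least 1 UMI of the list, as did 471 of the 868 comparison spots. CSF1R was found in 49 marked spots (63.6%) and 179 comparison spots (20.6%), with 95 and 264 UMIs and a log2 ratio of 2.28 (1.92 to 2.62). CD68, a lysosomal protein of macrophages, had 37 and 44 UMIs (3.51, 2.83 to 4.17). The scavenger receptor STAB1 (2.31) and the complement chain C1QA (2.33) were in 35 marked spots each, but C1QB had 8 and 82 UMIs (0.47, -0.86 to 1.44) and stood below the median gene. The median share of the list per spot was 0.20% in marked and 0.019% in comparison spots.

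Genes of lipid-handling and matrix-degrading macrophages were divided. GPNMB, a lysosomal glycoprotein, had 34 and 35 UMIs, a log2 ratio of 3.71 (2.99 to 4.43). SPP1, encoding osteopontin, had 17 and 33 (2.82), and the proteases CTSK and CTSB had 301 and 1027 (1.98) and 260 and 1178 (1.58). LPL (0.57), FABP5 (0.28), PLIN2 (0.19) and CD36 (0.60), which release, bind, take up or store lipid, were close to or below the median gene. In all 5 of 9 measured genes were 2-fold or more higher, against 32.4% of all genes.

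All 7 measured antigen presentation genes were 2-fold or more higher, against 32.4% of all genes, with a median log2 ratio of 2.62. The median was 0.93 with comparison spots weighted by connective tissue share, where 3 of the 7 were higher, against 12.4% of all genes. CD74 had 92 UMIs in 36 marked spots and 78 UMIs in 60 comparison spots, a log2 ratio of 3.99 (3.54 to 4.45). A single marked spot held 17 of the 92. The class II chain HLA-DRA had 73 and 141 UMIs (2.81, 2.38 to 3.22), and B2M, the light chain of class I, had 209 and 1136 (1.31, 1.09 to 1.53). Plasma cells as a rule carry little class II, and macrophages carry much. Which cells in the marked spots held the class II transcripts was not tested.

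**Figure D2:**
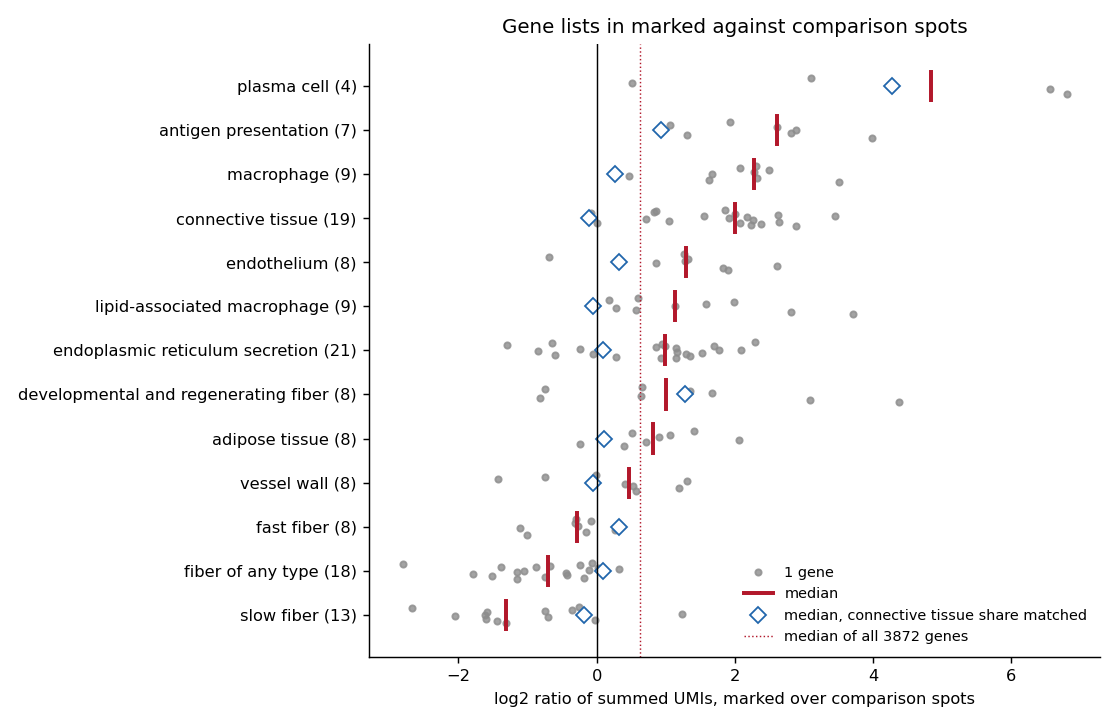
Log2 ratio of summed UMIs in marked over comparison spots (x axis) for the genes of 13 lists (y axis, number of measured genes in brackets), with list medians as red bars and medians after weighting comparison spots to the connective tissue shares of the marked spots as open diamonds. The dotted line is the median of all 3872 genes, 0.63 on the log2 scale. The plasma cell median, over 4 genes, is 4.83 and 4.27 after the weighting.

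Over all marked spots together adipose genes differed less. Of 8 measured adipose genes 3 were 2-fold or more higher, a share near the 32.4% of all genes, with a median log2 ratio of 0.81 that was -0.22 when comparison spots were weighted by their share of fiber transcripts. AQP8, a water channel, had 41 and 134 UMIs (2.06) and PTGER3, a prostaglandin receptor of fat cells, 44 and 226 (1.41). SNCG (0.72), PPARG (0.90) and ADIPOQ (0.40, from 2 and 25 UMIs) lay near the median gene and CIDEA, a lipid droplet protein, at -0.24 from 12 and 198 UMIs. The share of the adipose list was above the median of the comparison spots in 60 of 77 marked spots. It was above their 90th percentile in 9, against 51 for connective tissue and 50 for macrophages. Both of the latter shares were above in 39.

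Vessel lining genes were higher, and vessel wall genes were at about the level of the median gene. Of 8 measured endothelial genes 6 were 2-fold or more higher (median 1.30), against 32.4% of all genes. Their median fell to 0.70 with comparison spots weighted by fiber share and to 0.32 with connective tissue share. VWF, stored in endothelial granules, had 143 and 542 UMIs (1.83, 1.56 to 2.10), and SELP, a leukocyte adhesion receptor of activated endothelium, had 7 and 16 (2.62, 1.04 to 3.92). SELP reached the minimum UMIs for list members only through the marked spots, so the count of higher endothelial genes is a description only. Of 8 smooth muscle and pericyte genes 2 were 2-fold or more higher and 1 lower, against 32.4% and 6.35% of all genes. Their median was 0.47 against 0.63 for all genes, and -0.21 with the fiber weighting. MYH11, the smooth muscle myosin, had 28 and 259 UMIs (0.57, -0.07 to 1.11), close to the median gene.

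Adult muscle fiber genes were lower. Of 39 measured genes 15 were 2-fold or more lower and 1 higher, against 6.35% and 32.4% of all genes. The median log2 ratio was -0.70, and 0.02 when comparison spots were weighted by connective tissue share. Over the 40 fiber genes with a feature the median share was 4.12% of a marked spot (0.70% to 11.8%) and 8.70% of a comparison spot (1.05% to 18.0%), and 6 of the 77 marked spots were above the comparison median. Slow fiber genes differed most. Of 13 measured slow genes 7 were 2-fold or more lower and 1 higher, against the same 6.35% and 32.4%. Their median log2 ratio was -1.31. It was -0.18 when comparison spots were weighted by connective tissue share and -0.46 when they were weighted by fiber share. The slow light chain MYL3 had 342 and 19196 UMIs (-2.06, -2.22 to -1.90), troponin C TNNC1 512 and 21000 (-1.60), and the slow myosin MYH7 1318 and 44057 (-1.31, -1.39 to -1.23). Of 8 fast genes 1 was lower, against 6.35% of all genes (median -0.28, and 0.32 when comparison spots were weighted by connective tissue share). It was ACTN3, the actinin of fast fibers, at -1.10 from 31 and 911 UMIs. The fast myosin MYH1 was just short of 2-fold lower with 671 and 18108 UMIs (interval of the log2 ratio -1.11 to -0.89), and the fast light chain MYL1 was at 0.26. CASQ2, a calcium store protein, was the slow-list gene that was higher, at 94 and 542 UMIs (1.23). Mitochondrially encoded features were 2-fold or more lower in 18 of 26 tested, against 4.8% of all genes with 50 or more UMIs. Over the 31 with 20 or more UMIs the median was -1.11, and -0.37 with comparison spots weighted by connective tissue share. With that weighting 5 of the 31 were 2-fold or more lower and 3 higher, against 8.45% and 12.4% of all genes.

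**Figure D3:**
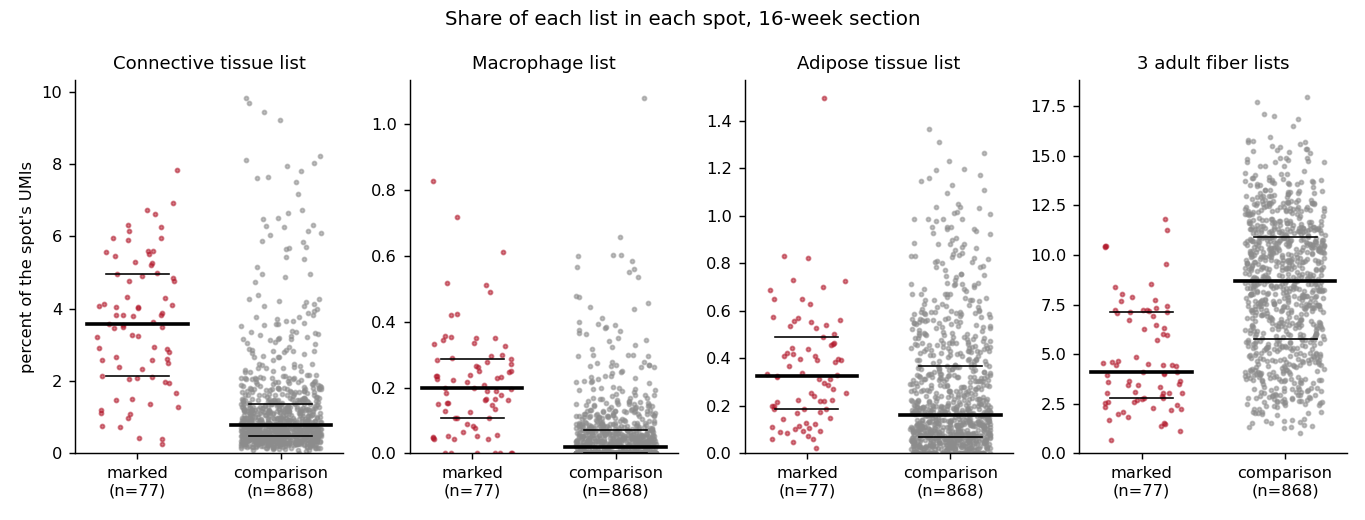
Percent of each spot's UMIs taken by 4 gene lists (y axes), with a point per spot, the median as a thick bar and the quartiles as thin bars. Marked spots have medians of 3.58% for connective tissue and 4.12% for adult fibers against 0.78% and 8.70% in comparison spots, while the adipose shares overlap across most of their range.

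Of 8 measured genes of developing and regenerating fibers 4 were 2-fold or more higher, against 32.4% of all genes, and 6 lay above 0, with a median log2 ratio of 1.0 and a lowest value of -0.81 (MYF6, 1 and 35 UMIs). MYH8, the neonatal myosin that regenerating fibers express again, had 48 UMIs in marked and 31 in comparison spots, a log2 ratio of 4.38 (3.70 to 5.08). MYL4, the embryonic light chain, had 91 and 145 UMIs (3.08, 2.69 to 3.47), and NES, which is on no list and is an intermediate filament of regenerating fibers and of endothelium, had 83 and 160 (2.81). All 3 were among the 10 highest ratios of genes with a symbol and 50 or more UMIs, the others being JCHAIN, CD74, GPNMB, CD68, SFRP2, COL1A1 and SPP1. MYH8, JCHAIN, GPNMB, CD68 and SPP1 had fewer than 50 UMIs in comparison spots and passed this minimum only through the marked spots. The ranking is therefore a description only. MYH8 or MYL4 was detected in 37 of the 77 marked spots and both in 16.

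The place of the spots moved with this result. The deposited positions carry no barcodes, so a spot could be placed only by which of the other sections also had tissue over the same barcode, here called its position group. For all 15 combinations of the 4 sections the number of barcodes equaled the number of positions, and 512 of the 2931 barcodes were under tissue in all 4. Of the 77 marked spots 51 (66.2%) belonged to a group of 124 spots whose barcodes were otherwise under tissue only in the fresh healthy section. In that group 41.1% of spots were marked (32.4% to 50.3%), against 1.83%, 3.02%, 1.17% and 2.94% in the next 4 groups and 0 in the last 3. Its positions formed a patch of 113 near the edge of the section at a median array column of 101, and which of them held the marked spots is not known.

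**Figure D4:**
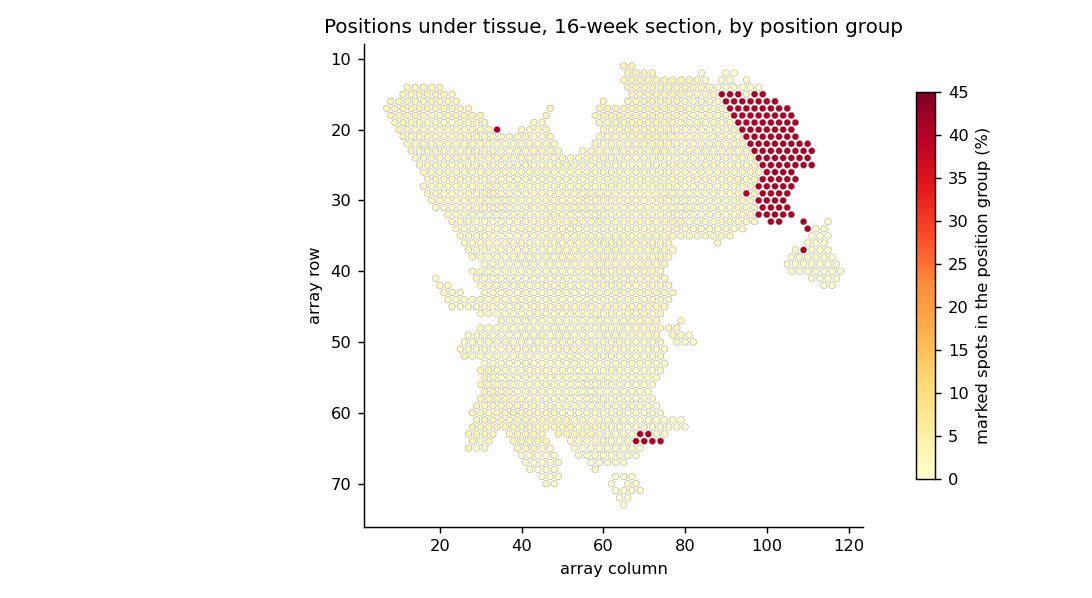
Array positions under tissue in the 16-week section (x axis array column, y axis array row), colored by the percent of marked spots in the position group that each position belongs to. The dark patch at the right edge is the group with 41.1% marked spots, and single spots within a group are not placed.

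MYH8 and MYL4 were abundant in this place but not higher in the marked spots within it. The group held 119 MYH8 and 233 MYL4 UMIs, and 33 of the 37 marked spots with MYH8 or MYL4, including all 16 with both, were in it. Within the group the 51 marked spots were set against its other 69 spots of 500 or more UMIs, of which 12 held 0 of the choosing feature and the others up to 21, with a median of 4 over all 69. In the whole group 13 spots held 5 to 9 UMIs of it and 17 held 10 or more below the threshold, so the reference inside the group was not free of the choosing feature, as the one outside was. MYH8 then had 45 and 74 UMIs, a log2 ratio of -0.43 (-1.01 to 0.11), and MYL4 had 89 and 144 (-0.41, -0.81 to -0.03). Among the 26 marked and 856 comparison spots elsewhere, MYH8 had 3 UMIs in marked spots (2.46, -0.10 to 3.97) and MYL4 had 2 (-0.38, -3.75 to 1.19). SPP1 was at -0.15 inside and had 0 UMIs in the marked spots outside, and NES was at 0.45 inside and -0.06 outside.

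The plasma cell markers were higher in the marked spots of both places. JCHAIN had 63 and 3 UMIs inside the group (4.46, 3.06 to 6.99) and 32 UMIs in the 26 marked spots outside (7.07, 6.05 to 8.30). MZB1 had 14 and 0 UMIs inside and 10 UMIs in the marked spots outside (7.02, 5.22 to 9.67). LTB was higher in both, at 2.78 inside from 8 and 1 UMIs (0.38 to 8.75) and 4.39 outside (2.93 to 5.64), and so was CD74, at 1.52 inside (0.91 to 2.19) and 3.39 outside (2.53 to 4.11). Connective tissue was higher in marked spots of both places as well, with COL3A1 at 0.81 inside and 1.94 outside, and MYH7 was lower in both, at -1.49 and -1.16. The list medians inside the group were smaller, at 0.66 for connective tissue and 1.01 for macrophages. The adipose median was 0.50 inside and 1.28 outside. Outside the group the adipose list took a median of 0.46% of a marked spot and 0.16% of a comparison spot.

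**Figure D5:**
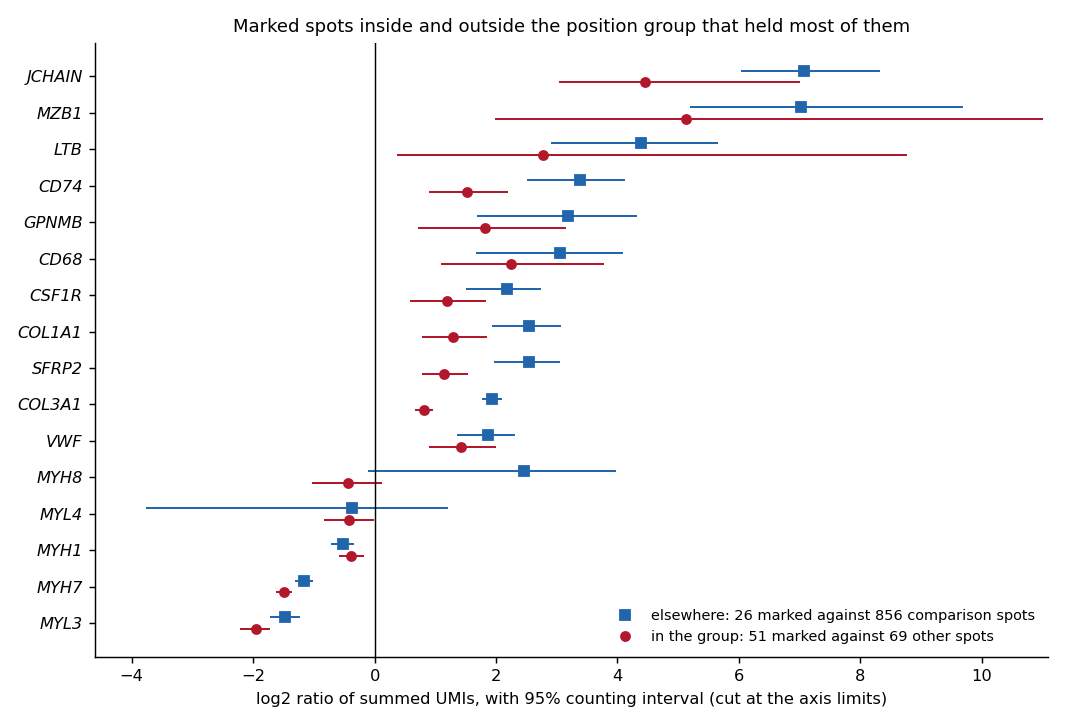
Log2 ratio of summed UMIs with 95% counting interval (x axis) for 16 genes (y axis), for the 51 marked against 69 other spots inside the position group that held most marked spots and for the 26 marked against 856 comparison spots elsewhere. JCHAIN, MZB1 and CD74 lie right of 0 in both places and MYL3 and MYH7 left of 0, while the intervals of MYH8 include 0 in both.

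How much of these differences moved with connective tissue was described by weighting the comparison spots so that their shares of connective tissue transcripts matched those of the marked spots. With this weighting 479 of 3872 genes (12.4%) were 2-fold or more higher and 327 (8.45%) lower, where 1256 (32.4%) and 246 (6.35%) had been without it. JCHAIN stayed at 5.96 on the log2 scale, MZB1 at 7.50, LTB at 3.82 and CD74 at 2.40. CD68 was at 1.88, CSF1R at 0.26 and STAB1 at 0.24, so that 1 of 9 macrophage genes was still 2-fold or more higher, and C1QB was lower at -1.67. COL1A1 was at 0.05 and SPP1 at -0.42. MYH8 (3.84) and MYL4 (3.63) kept high ratios under this weighting, which does not use the place. The slow genes MYL3 (-1.11) and TNNC1 (-0.80) remained lower, by less than before. The median of the slow list was -0.18 under this weighting. Of its 13 measured genes 2 were 2-fold or more lower and 1 higher, against 8.45% and 12.4% of all genes.

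Among the 10 lowest ratios of such genes were those of MTUS1, PDE4DIP, KLHL41, ANKRD2, STRIT1, MYH13, MFN1, ABCA5 and MYL3. STRIT1, a small regulator of the calcium pump of slow fibers, had 118 and 10105 UMIs (-2.66, -2.94 to -2.40), and ANKRD2, a stretch-responsive protein of slow fibers, had 11 and 987 (-2.67, -3.74 to -1.89). KLHL41, a sarcomere assembly factor, had 2 and 235 (-2.80, -6.18 to -1.25). MTUS1 had 0 and 59 UMIs and MFN1, ABCA5 and MYH13 had 1 each in marked spots, with 41 of the 101 MYH13 UMIs of the comparison group in a single spot. Of the 122 lower genes 32 had 0 or 1 UMI in marked spots.

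The same rule gave few spots in the other sections. The 2-week section had 3 spots with 23 or more UMIs of the feature among 854, with 332, 196 and 59 UMIs, the fresh healthy section had 1 among 1950 with 121 UMIs, and the stored healthy section had 0 among 2440, where no spot held more than 2. JCHAIN totals were 129 UMIs at 16 weeks, or 27.2 per 1000000 UMIs, 28 (6.86 per 1000000) at 2 weeks, 16 (2.28 per 1000000) in fresh and 5 (0.40 per 1000000) in stored healthy muscle. The 3 spots at 2 weeks held 16 of the 28 JCHAIN UMIs of their section and 159 of the 202 UMIs of ENSOCUG00000025374. Fiber transcripts took 18.3% of their UMIs against 17.3% in the spots of that section without the feature, and connective tissue transcripts took 2.50% against 1.39%. With 1 section per condition, time after tenotomy, animal and place in the muscle cannot be told apart.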

How the data were processed

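Spatial 3' RNA sequencing (Visium) was done on 1 section per condition. The authors aligned the images by hand in Loupe Browser, ran Space Ranger 1.2.0 against OryCun2.0 and an Ensembl annotation, and deposited raw UMI counts for each spot covered by tissue. Position lists accompany them without barcodes. How reads shared by close relatives such as the myosin genes were counted is not given in the sources used here. All 21139 features were kept.

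UMIs were summed per gene over 77 marked and 868 comparison spots, divided by the group totals without the choosing feature, and compared as log2 ratios with 0.5 UMI added. Genes needed 50 UMIs over both groups, list members 20. Ratios carry exact conditional, shares exact binomial (Clopper-Pearson) and sums exact Poisson 95% intervals, for counting error only, since spots are not replicates. No test and no doublet caller was run. Section totals lay between 4079313 and 12536450 UMIs.

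Members and gene lists were chosen with earlier results of these data known. Named genes were JCHAIN, MZB1, up to 8 members of each list with most UMIs, the 10 highest and 10 lowest ratios among genes with a symbol, and at most 2 features without a symbol each way. ASPN, CASQ2, COL12A1, KERA, PLIN2, SEC61A1 and list members with fewer than 20 UMIs were named after their values were seen, and the alternatives that use connective tissue share, position group or centering were added then. Weighted ratios used decile classes of the comparison and marked spots together. Some genes that the rule selects are not reported here. The script was tested on simulated counts. Python 3.11.15, numpy 2.4.6, scipy 1.17.1 and pandas 2.3.3 were used.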

Additional observations from a re-analysis of the deposited data

How the results depend on the processing

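Of 344 values recomputed under other settings, 287 stayed within the limits set for each. These limits were wide for list medians. The 287 include the adipose (-0.22) and vessel wall (-0.21) medians with fiber share weighted, which were 0.81 and 0.47 in the main setting. They also include the secretory pathway (0.09) and endothelial (0.32) medians with connective tissue share weighted, which were 1.0 and 1.30. The count is therefore no measure of how stable these medians were. The main division was 743 genes higher and 122 lower (85.9% higher). It was 1256 and 246 with a minimum of 20 UMIs, 203 and 53 with 200, 1269 and 232 at 1.5-fold, 242 and 44 at 3-fold, 140 and 59 (70.4% higher) after thinning to 500 UMIs, 380 and 186 (67.1%) without mitochondrial genes, and 1220 and 214 for spots chosen by 3 or more JCHAIN UMIs. Weighting by fiber share left 239 higher and 115 lower (67.5%). Among settings chosen after the data were seen, centering on the median gene gave 242 and 304 (44.3%), weighting by connective tissue share 161 and 132 (54.9%), spots outside the position group with most marked spots 696 and 223 (75.7%), and spots inside it 45 and 24 (65.2%), where fewer genes could be tested.

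JCHAIN lay between 4.46 and 7.12 on the log2 scale, lowest inside the position group and 5.55 with fiber share weighted. MZB1 lay between 3.98, after thinning, and 7.89. The connective tissue median was 0.69 with fiber share weighted, 0.66 inside the position group and -0.11 with connective tissue share weighted, where the weighting used the list itself. The macrophage median was 1.03, 1.01 and 0.26 in the same settings and 1.32 for spots chosen by JCHAIN. The antigen presentation median, 2.62 in the main setting, was 1.97, 1.13 and 0.93 in these settings and 1.35 for spots chosen by JCHAIN. The median of fiber genes of any type was -1.29 centered, 0.087 with connective tissue and -0.040 with fiber share weighted. The developmental fiber median turned to -0.26 inside and -0.56 outside the position group, the lipid-associated macrophage median to -0.057 with connective tissue share weighted, and the lymphoid signal median to -0.57 and -0.27 with connective tissue and fiber share weighted. The cause of the changes that no setting's own construction shows was not tested. No paired analysis was possible because each condition was 1 section. Depth limits genes with few UMIs, and no interval covers differences between animals, sections or neighboring spots.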

Other observations

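Further gene groups, listed after the values had been seen, described the same spots. Complement genes were higher in marked spots, with 7 of 8 measured genes 2-fold or more higher, against 32.4% of all genes. Their median log2 ratio was 2.19. The lowest of them, C1QB at 0.47, is also on the macrophage list, so these groups are not separate. The classical pathway protease C1R had 226 and 513 UMIs (2.57, 2.34 to 2.80) and was found in 64 of 77 marked spots, and its inhibitor SERPING1 had 75 and 187 (2.44, 2.03 to 2.83). Inside the position group that held most marked spots the complement median was 1.22 and outside it 1.85, and it was 0.44 with comparison spots weighted by connective tissue share. Matrix proteases and their inhibitors were 2-fold or more higher in 7 of 10 measured genes (median 1.56), against 32.4% of all genes. They had a median of -0.05 with that weighting.

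Housekeeping groups lay at or below the median gene, which had a log2 ratio of 0.63. Of 12 cytosolic ribosomal protein genes 1 was 2-fold or more higher, against 32.4% of all genes, and the median was 0.52. The higher gene was RPL26L1, from 31 and 168 UMIs (1.33, 0.71 to 1.87). The 26 nuclear-encoded respiratory chain genes had a median of -0.07, with a single gene above the median gene. Of them 1 was higher (COX4I2, 8 and 28 UMIs) and 0 lower, against 32.4% and 6.35% of all genes. Among mitochondrially encoded features 18 of 26 tested were 2-fold or more lower, against 4.8% of all genes with 50 or more UMIs. The median of the 31 with 20 or more UMIs was -1.11. It was -0.70 outside the position group with most marked spots, -0.61 inside it and -0.37 with connective tissue share weighted. The 6 glycolysis genes had a median of -0.08, with 1 above the median gene. A further feature without a symbol had 48 and 10 UMIs and a log2 ratio of 5.96, but a single marked spot held 33 of the 48 (68.8%), and inside the position group its log2 ratio was -0.37. It too passed the minimum of 50 UMIs only through the marked spots.

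The 668 spots between the groups, with 1 to 21 UMIs of the choosing feature, held 1893 UMIs of it. Of these spots 19 held 1 JCHAIN UMI and 2 held 2. By classes of the choosing feature itself, given as a description, the share of spots lying in the position group with most marked spots was 1.38% in comparison spots, 2.52% at 1 UMI of the feature, 8.37% at 2 to 4, 21.0% at 5 to 9, 41.5% from 10 up to the threshold, and 65.6%, 81.0% and 54.2% in the 3 marked classes.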
